A study of Canis lupus familiaris with 18 samples.

Results

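The genes described here encode the respiratory complexes II, III and IV, cytochrome c and the ATP synthase (complex V), with factors that assemble them. They were chosen by symbol: every gene whose only platform symbol begins with SDH, UQCR or ATP5, or is COX followed by a digit, together with CYC1 and CYCS. This gave 40 genes among 15115 genes with a symbol of their own on the canine array. Each gene was read from its probe set of highest mean signal. Of the 40 genes, 39 passed a filter on low signal and were tested. COX10, a complex IV assembly factor, averaged 5.30 on the log2 scale, just under the limit of 5.31, and was not tested. The dimmest gene kept was COX15, at 6.72, and the brightest was ATP5F1B, at 13.86. Other subunits of these complexes were not analysed here.

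Mitochondria make most of the ATP that a beating heart uses. Complex II (succinate dehydrogenase) passes electrons from succinate to ubiquinone, complex III passes them on to cytochrome c, and complex IV (cytochrome c oxidase) passes them to oxygen. Complexes III and IV pump protons across the inner membrane as they do so, and the ATP synthase lets the protons back to make ATP. Several complex IV subunits come in alternative forms encoded by separate genes, some of them mainly found in heart and skeletal muscle, and heart failure (HF) is commonly discussed as a state of impaired energy supply.

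The samples were small frozen pieces of dog heart: right atrium (RA) in early HF, late HF and control, and right ventricle (RV) in early HF, late HF and control, with 3 arrays in each of the 6 groups. HF was produced by continuous tachypacing with a modified pacemaker, lasting 2 weeks for early HF and 5 weeks for late HF, and a second protocol text allows a further week for each. The dogs were mongrel or beagle, and neither breed nor identity is known for a given array. Each p-value therefore measures how far these samples spread, which may be partly technical. All values below are deposited log2 signals or differences of their means, and an error is the standard error (SE) of a limma fit over all 18 arrays. A gene was called changed at an adjusted p under 0.05, with Benjamini-Hochberg adjustment over all 25752 probe sets tested.

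The labels were checked against markers. Over 9 atrial marker genes the mean log2 signal lay between 9.74 and 10.20 on 8 of the 9 RA arrays, and between 7.57 and 8.43 on the RV arrays. The library labelled RA late 3 stood apart, with 8.54 for the atrial list and 11.67 for a list of 7 ventricular markers, against 9.27 and 9.68 for the ventricular list on the other RA late arrays and 10.85 to 11.76 on the RV arrays. Its place in the RA late group therefore goes against these list means, though not against every atrial gene. GJA5 read 8.74 on it, near the means in RA early HF (8.61) and RA control (9.04) and above those in RV (6.77 to 7.20). MYL7 read 11.65, below the means in RA early HF (13.87), RA control (14.04) and RV (11.99 to 12.81). Results are given with and without this library. Myocyte markers were strong throughout: the mean of 11 such genes lay between 12.33 and 13.05 on every array. The 3′ minus 5′ log2 signal of GAPDH, a sign of RNA degradation, averaged 1.46 in RA early HF, 1.28 in RA late HF, 1.32 in RA control, 1.24 in RV early HF, 1.36 in RV late HF and 1.17 in RV control. The same measure for actin ran from -0.41 to 0.69 in RA control, -0.88 to -0.31 in RA early HF and -1.88 to -0.33 in RA late HF. In RV it was lower, at -2.03 to -1.27 in control, -1.74 to -1.43 in early HF and -1.50 to -1.14 in late HF. The part of RNA quality in the differences below was not tested.

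In early HF most of these genes had lower mean signals than in control, in both chambers, by small amounts. In RA, 33 of the 39 genes had a lower mean in early HF than in control, which is 84.6% against 54% of all genes tested. The median difference was -0.17 on the log2 scale (11.3% lower), against -0.02 over all genes. In RV, 31 of 39 had a lower mean in early HF, 79.5% against 52.7% of all genes, and the median was again -0.17, against -0.01 over all genes. Of the 39 genes, 28 had lower means in both chambers. The share of all genes lower in both chambers is not given here, so this count cannot be read against it.

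No single gene passed the test in either chamber with all arrays in the fit. In RA early HF, limma called 0 of 39 genes, against 0.746% of all genes, while 13 genes were lower and 1 was higher at an unadjusted p under 0.05, against 6.93% and 6.08% of all genes. In RV early HF it called 0 of 39, against 0.1% of all genes, with 16 lower and 0 higher at an unadjusted p under 0.05, against 4.44% and 3.9% of all genes. The smallest adjusted p was 0.0661 in RA (COX6A2) and 0.143 in RV (SDHB). Separation of the arrays showed the same pattern. All 3 RA early HF arrays lay below all 3 RA control arrays for 17 of the 39 genes, against 9.45% of all genes, and above them for 3 genes, against 8.66%. In RV, 20 genes lay wholly below control in early HF, against 8.98% of all genes, and 0 lay wholly above, against 7.02%.

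**Figure D1:**
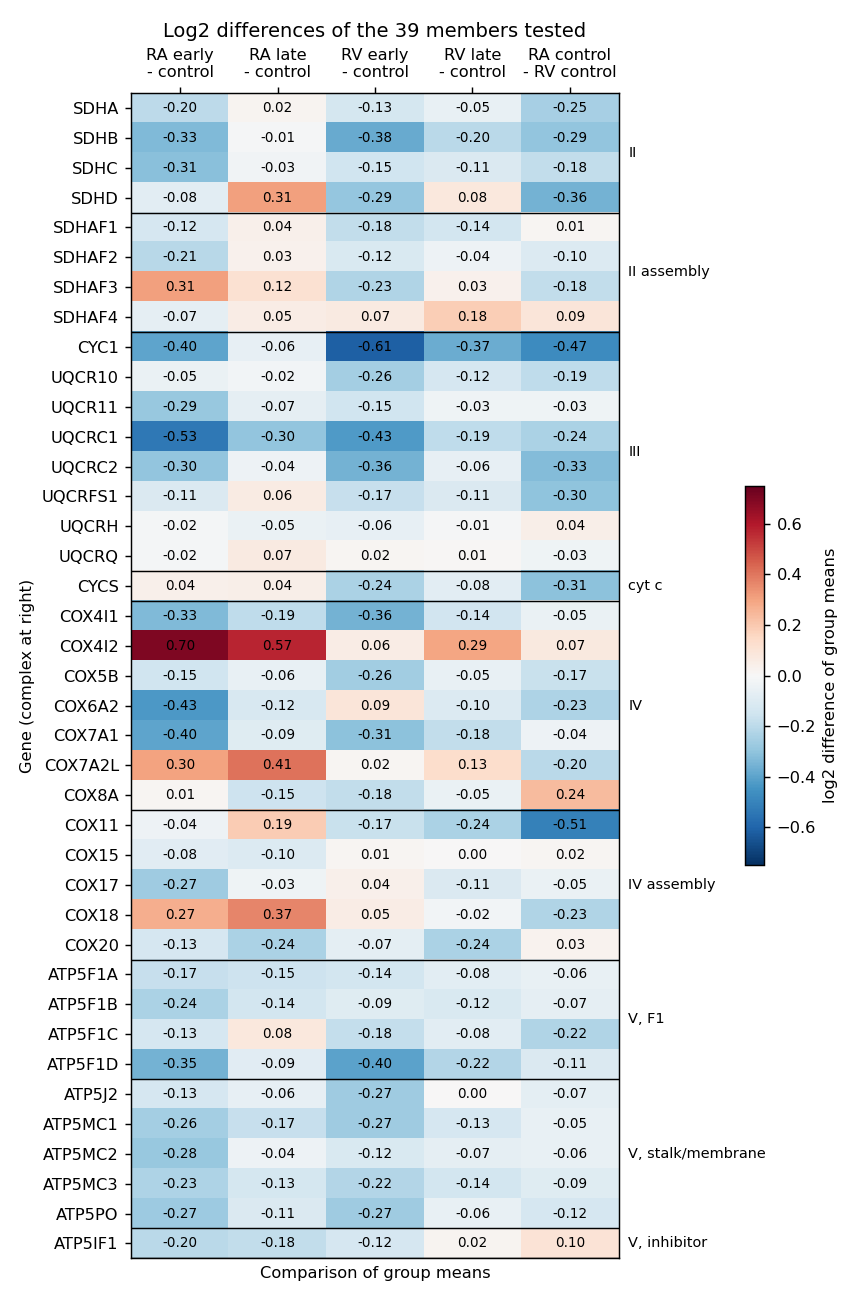
Log2 differences of group means for the 39 genes tested (rows, grouped by complex) in 5 comparisons (columns), with the value printed in each cell and blue for a lower and red for a higher mean in the first-named group. The 2 early HF columns are mostly blue, with medians of -0.17 each, the 2 late HF columns are paler, and COX4I2 is the reddest cell, at 0.70 in RA early HF.

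The 10 genes whose arrays lay wholly below control in early HF of both chambers were SDHB, UQCRC1, COX4I1, COX7A1, ATP5F1B, ATP5F1D, ATP5PO, ATP5MC1, ATP5MC3 and ATP5J2. They cover each of the 4 complexes. Of all genes, 2.09% lay wholly below control in both chambers. In contrast COX4I2, COX7A2L and COX18 had higher means in early HF than in control in both chambers, and their arrays were separated from control in RA but not in RV.

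**Figure D2:**
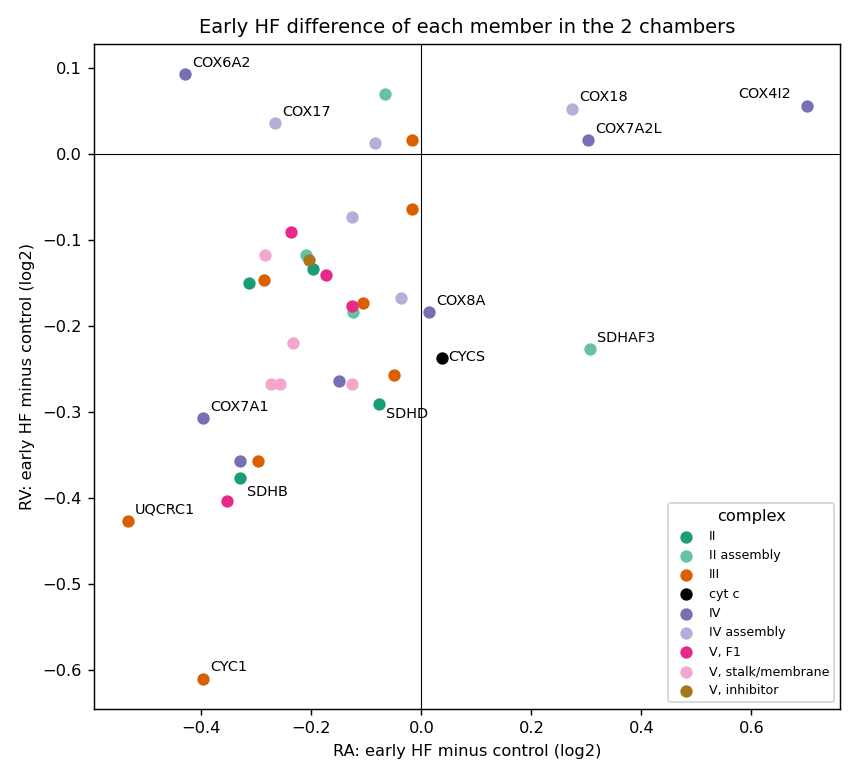
Difference between early HF and control in RA (x axis, log2) and in RV (y axis, log2) for each of the 39 genes, coloured by complex. The lower left quadrant, lower in both chambers, holds 28 genes, and the upper right holds COX4I2, COX7A2L and COX18.

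Which genes were called in RA early HF differed between fits. The library labelled RA late 3 is in neither group of that comparison but adds to the fit's estimate of spread. Without it, 4 of the genes fell in RA early HF: COX6A2, COX7A1, SDHB and UQCRC1 (adjusted p = 0.0212, 0.0447, 0.028 and 0.019), and COX4I2 rose (adjusted p = 0.0381), while 3% of all genes were called. Over all alternatives the adjusted p ranged between 0.00612 and 0.236 for COX6A2, 0.0447 and 0.271 for COX7A1, 0.02 and 0.303 for SDHB, 0.00689 and 0.308 for UQCRC1 and 0.0292 and 0.877 for COX4I2. COX4I1 was not called without that library, but was called in 3 of 15 alternatives (range 0.033 to 0.351), 1 of which fitted only the groups compared. In RV early HF SDHB alone fell without that library (adjusted p = 0.0378, range over alternatives 0.0187 to 0.586), against 0.528% of all genes.

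The 4 subunits of complex II were lower in early HF in both chambers, with medians of -0.26 in RA and -0.22 in RV. SDHB carries the iron-sulfur clusters that pass electrons from the catalytic subunit to the membrane. Its log2 signal was 11.50, 11.42 and 11.36 in RA early HF, against 11.77, 11.77 and 11.73 in RA control. In RV it was 11.62, 11.76 and 11.64 in early HF, against 12.08, 12.09 and 11.98 in control. Neither pair of groups overlapped, and the differences were -0.33 (SE 0.10, adjusted p = 0.111) in RA and -0.38 (SE 0.10, adjusted p = 0.143) in RV.

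SDHA, the flavoprotein that oxidises succinate, had 11.43, 11.15 and 11.21 in RA early HF, against 11.42, 11.57 and 11.39 in RA control, and these arrays overlapped. In RV its early HF arrays (11.60, 11.54 and 11.59) lay below the control arrays (11.75, 11.75 and 11.63), a difference of -0.13 (SE 0.11). SDHC and SDHD anchor the enzyme in the inner membrane and bind ubiquinone. SDHC had 11.30, 11.27 and 11.46 in RA early HF and 11.58, 11.47 and 11.92 in RA control, without overlap, but its RV groups overlapped (11.43, 11.78 and 11.86 in early HF, 11.77, 11.74 and 12.01 in control). SDHD gave the opposite picture, with separate groups in RV (10.52, 10.64 and 10.69 in early HF, 10.95, 10.96 and 10.81 in control) and overlapping groups in RA (10.52, 10.50 and 10.40 in early HF, 10.56, 10.58 and 10.51 in control).

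The 4 complex II assembly factors, SDHAF1 to SDHAF4, were less uniform, with differences between -0.21 and 0.31 in RA early HF and between -0.23 and 0.07 in RV early HF. SDHAF3 had the largest SE of all 39 genes, 0.35. Its signal was 8.48, 6.96 and 8.09 in RA early HF, against 7.66, 7.58 and 7.37 in RA control. In RV it was 8.0, 6.51 and 7.97 in early HF, against 7.81, 7.84 and 7.51 in control. The array numbered 2 was far below the other early HF arrays in each chamber.

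Complex III showed its largest differences in UQCRC1, a core protein, and CYC1, the haem protein that hands electrons to cytochrome c. All 8 subunits had lower means in RA early HF (range -0.53 to -0.02), and 7 of 8 did in RV early HF (range -0.61 to 0.02). UQCRC1 had 12.30, 12.02 and 11.99 in RA early HF, against 12.70, 12.59 and 12.62 in RA control. In RV it had 12.40, 12.59 and 12.35 in early HF, against 12.94, 12.91 and 12.77 in control. The groups were separate in both chambers, with differences of -0.53 (SE 0.15, adjusted p = 0.112) in RA and -0.43 (SE 0.15, adjusted p = 0.395) in RV.

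CYC1 had the largest difference of the set in RV: 9.81, 10.23 and 9.87 in RV early HF, against 10.86, 10.50 and 10.38 in RV control, a difference of -0.61 (SE 0.20, adjusted p = 0.325). Its RA arrays overlapped, with 9.89, 9.68 and 9.56 in early HF and 10.36, 10.15 and 9.81 in control. UQCR10, a small subunit, was lower in RV early HF (12.81, 12.85 and 12.81) than in RV control (13.16, 13.08 and 13) without overlap, by -0.26 (SE 0.07, adjusted p = 0.202), while in RA it had 12.83, 12.89 and 12.80 in early HF and 12.89, 12.84 and 12.94 in control. UQCRC2, the other core protein, had differences of -0.30 in RA and -0.36 in RV, and UQCRFS1, the Rieske iron-sulfur protein, -0.11 and -0.17. UQCRH and UQCRQ, both small subunits with mean signals over 13, each differed by -0.02 in RA and by -0.06 and 0.02 in RV.

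Cytochrome c itself (CYCS), the soluble carrier between complexes III and IV, had 12.85, 12.88 and 12.97 in RA early HF, against 12.87, 12.86 and 12.86 in RA control, a difference of 0.04 (SE 0.09). In RV the early HF arrays (12.93, 12.92 and 12.96) lay below the control arrays (13.21, 13.22 and 13.09), by -0.24 (SE 0.09, adjusted p = 0.446). The difference between the chambers in this effect was 0.27 (SE 0.13, adjusted p = 0.916).

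**Figure D3:**
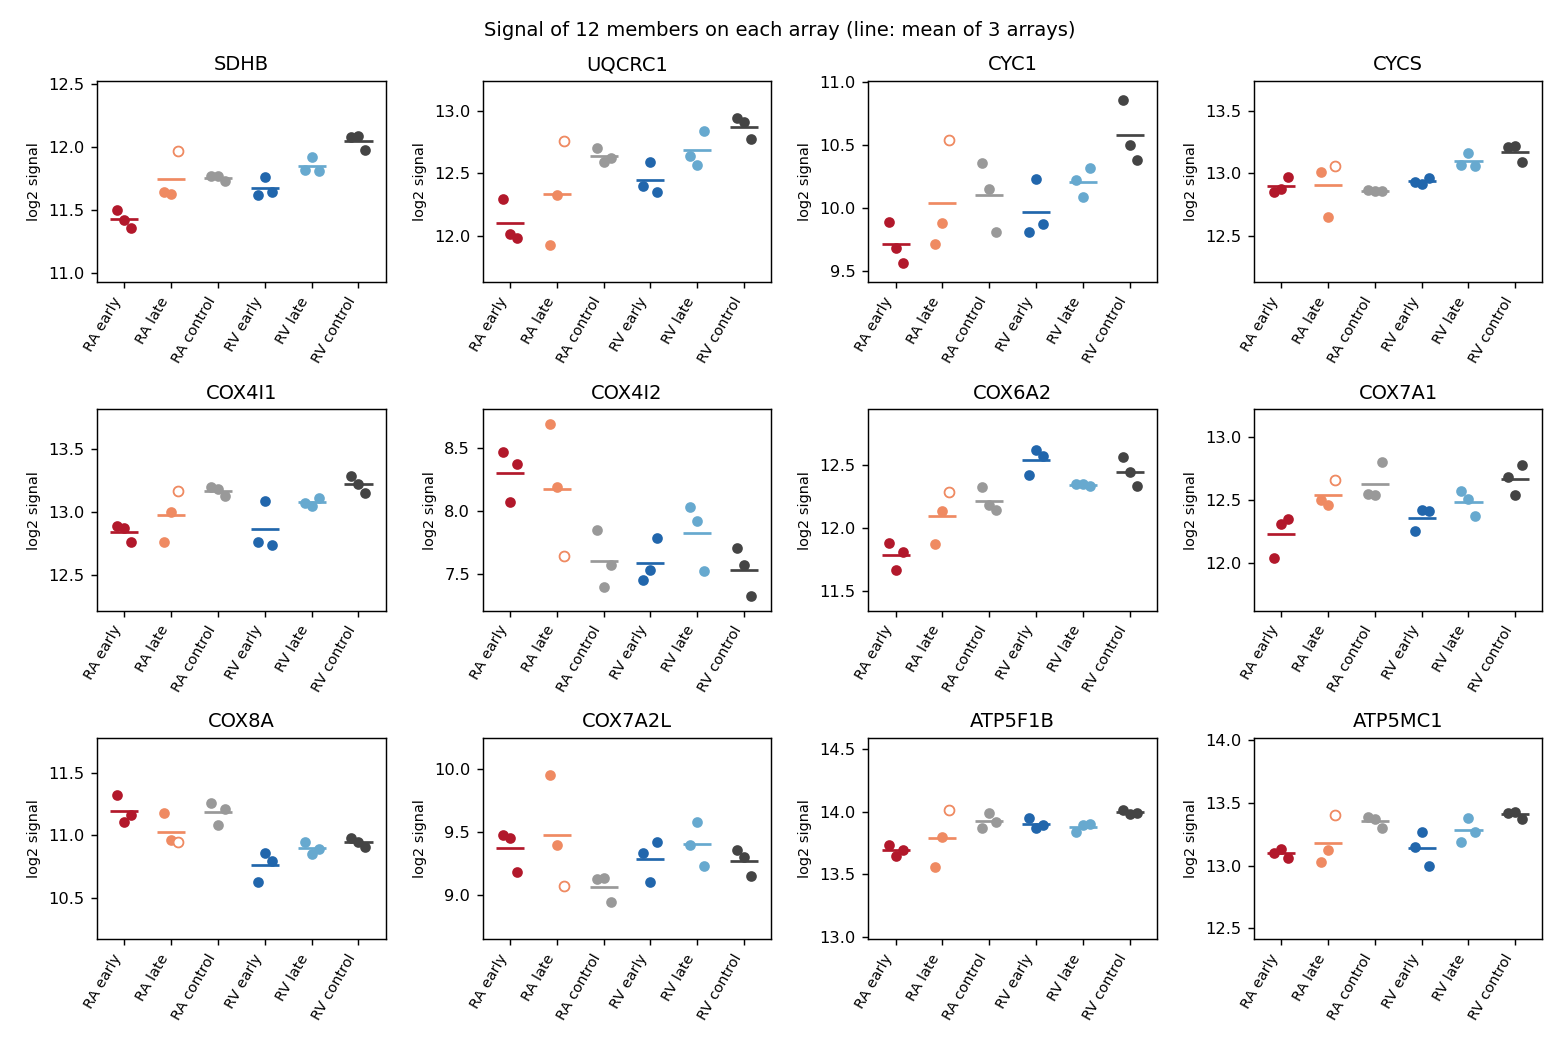
Log2 signal (y axis, each panel spanning 1.6 units) of 12 genes on every array in the 6 groups (x axis), with points for arrays, a line for the mean of 3 and an open point for the library labelled RA late 3. SDHB, UQCRC1 and COX4I1 are lower in early HF than in control in both chambers, COX6A2 is low in RA early HF and not in RV early HF, and COX4I2 is high in RA early HF.

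The complex IV subunits differed among themselves. COX4I1, the widely expressed form of subunit 4, had 12.89, 12.87 and 12.76 in RA early HF, against 13.20, 13.18 and 13.13 in RA control. Its RV arrays read 12.76, 13.09 and 12.74 in early HF, against 13.29, 13.22 and 13.15 in control. The arrays were separate in both chambers, at -0.33 (SE 0.10, adjusted p = 0.141) in RA and -0.36 (SE 0.10, adjusted p = 0.225) in RV.

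COX4I2 is the alternative form of subunit 4, known from lung and from cells of vessel walls and linked to low oxygen. It had 8.47, 8.07 and 8.37 in RA early HF, against 7.85, 7.39 and 7.57 in RA control, a difference of 0.70 (SE 0.22, adjusted p = 0.134), the largest upward difference of the 39 genes there. The RV values were 7.45, 7.53 and 7.78 in early HF, against 7.70, 7.57 and 7.32 in control, a difference of 0.06 (SE 0.22). This rests on the brighter probe set of the gene. The other one had 7.35, 7.33 and 7.14 in RA early HF, against 7.15, 6.93 and 7.52 in RA control, and differed by 0.07 (SE 0.12), so the probe sets disagree. Markers of smooth muscle and pericytes, 9 genes, averaged 8.59 to 8.79 in RA early HF, against 8.20 to 8.39 in RA control, and 8.43 to 8.46 in RV early HF, against 8.21 to 8.88 in RV control. Of the 9, 2 rose in RA early HF, where higher calls made up 0.291% of all genes, and none passed in RV early HF. Among the 2 was RGS5, a pericyte gene, by 1.05 (SE 0.21, adjusted p = 0.0348). KCNJ8 and CNN1 of the same list had lower means in RA early HF (8.05 and 6.20) than in RA control (8.56 and 6.27). The part of these marker genes in the COX4I2 values was not tested.

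COX6A2 and COX7A1 are the forms of their subunits typical of heart and skeletal muscle, and COX8A is the form found in most human tissues. COX6A2 had 11.88, 11.66 and 11.81 in RA early HF, against 12.32, 12.18 and 12.14 in RA control, a difference of -0.43 (SE 0.11, adjusted p = 0.0661). In RV it had 12.42, 12.62 and 12.57 in early HF, against 12.56, 12.44 and 12.33 in control, a difference of 0.09 (SE 0.11). The RA groups were separate and the RV groups overlapped. The difference between the chambers in this early HF effect was -0.52 (SE 0.15) with an unadjusted p of 0.003, and did not pass the test (adjusted p = 0.659).

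COX7A1 was lower in early HF of both chambers. It had 12.04, 12.31 and 12.35 in RA early HF, against 12.55, 12.54 and 12.80 in RA control (difference -0.40, SE 0.11, adjusted p = 0.0906). Its RV arrays read 12.25, 12.42 and 12.41 in early HF, against 12.68, 12.54 and 12.78 in control (difference -0.31, SE 0.11, adjusted p = 0.372). Neither pair overlapped. COX8A had 11.32, 11.11 and 11.16 in RA early HF, against 11.26, 11.08 and 11.21 in RA control, a difference of 0.01 (SE 0.10). The RV values were 10.63, 10.86 and 10.80 in early HF, below 10.98, 10.95 and 10.91 in control (difference -0.18, SE 0.10).

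COX7A2L, a relative of subunit 7A known for joining complexes III and IV into supercomplexes, was higher on every RA early HF array than on any RA control array. It had 9.47, 9.45 and 9.18 in RA early HF, against 9.12, 9.13 and 8.94 in RA control, a difference of 0.30 (SE 0.18, adjusted p = 0.486). In RV it had 9.33, 9.10 and 9.42 in early HF, against 9.35, 9.30 and 9.15 in control, a difference of 0.02 (SE 0.18). Its other probe set gave a difference of 0.64 (SE 0.23) in RA early HF, of the same sign. COX5B, a subunit on the matrix side, was lower by 0.15 in RA and 0.26 in RV.

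Among the 5 complex IV assembly factors tested, early HF differences lay between -0.27 and 0.27 in RA and between -0.17 and 0.05 in RV. COX17, a copper chaperone for complex IV, had the lowest value in RA, -0.27 (SE 0.11, adjusted p = 0.267), and 0.04 in RV. COX18, which inserts part of a mitochondrially encoded subunit into the membrane, had the highest, 0.27 (SE 0.17) in RA and 0.05 in RV. It had 8.15, 7.91 and 7.89 in RA early HF and 8.46, 7.82 and 7.95 in RA late HF, both wholly above 7.69, 7.75 and 7.69 in RA control. The RV groups overlapped, with 8.19, 7.67 and 8.11 in early HF, 7.75, 8.17 and 7.82 in late HF and 8.05, 7.83 and 7.93 in control.

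All 10 ATP synthase genes had lower means in early HF than in control in each chamber, with differences between -0.35 and -0.13 in RA and between -0.40 and -0.09 in RV. Of these 10, 8 lay wholly below control in RA and 7 did in RV, against 9.45% and 8.98% of all genes. ATP5F1D, the delta subunit of the F1 stalk, had the lowest values, -0.35 (SE 0.14, adjusted p = 0.235) in RA and -0.40 (SE 0.14, adjusted p = 0.343) in RV. ATP5F1B, the catalytic beta subunit, was lower by 0.24 in RA and 0.09 in RV. Its array signals approach the top of the scale, where the brightest probe set of each array lay between 14.40 and 14.49, and 7 of the 39 genes averaged over 13.

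The 3 genes ATP5MC1, ATP5MC2 and ATP5MC3 encode the same mature c subunit of the membrane rotor with different targeting peptides. ATP5MC1 had 13.10, 13.13 and 13.06 in RA early HF, against 13.39, 13.37 and 13.30 in RA control. Its RV arrays read 13.15, 13.27 and 13 in early HF, against 13.42, 13.43 and 13.37 in control. ATP5MC3 was likewise separate in both chambers, with 12.57, 12.55 and 12.71 in RA early HF, 12.88, 12.78 and 12.87 in RA control, 12.63, 12.77 and 12.75 in RV early HF and 12.91, 12.89 and 13.01 in RV control.

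ATP5MC2 was separate in RA, with 11.48, 11.51 and 11.51 in early HF and 11.69, 11.89 and 11.77 in control. Its RV arrays overlapped, with 11.61, 11.87 and 11.69 in early HF and 11.91, 11.83 and 11.78 in control. Differences for the 3 genes were -0.26, -0.28 and -0.23 in RA and -0.27, -0.12 and -0.22 in RV. ATP5PO, the peripheral stalk protein also called OSCP, differed by -0.27 in each chamber. ATP5J2, a small membrane subunit, differed by -0.13 in RA and -0.27 in RV. ATP5IF1, which inhibits ATP hydrolysis by the enzyme, differed by -0.20 in RA and -0.12 in RV.

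In late HF the median differences from control lay nearer to 0. In RA late HF 25 of 39 genes had a lower mean than in control (64.1% against 50.9% of all genes), with a median of -0.04 against 0.00 over all genes. Limma called 0 of 39 genes, against 0.0364% of all genes, with 0 lower and 4 higher at an unadjusted p under 0.05, against 4% and 5.96% of all genes. No gene lay wholly below control (5.87% of all genes did) and 2 lay wholly above (6.11% of all genes), SDHD and COX18. In RV late HF 30 of 39 had a lower mean (76.9% against 53%), with a median of -0.08 (5.18% lower) against -0.01. Limma called 0 of 39, against 0% of all genes, with 0 at an unadjusted p under 0.05, against 9.1% of all genes. Of the 39, 5 lay wholly below control, against 10.5% of all genes, and 0 wholly above, against 9.48%. The count below was 13 with quantile normalization, against 12.1% of all genes, and 10 of 37 genes with the second probe set, against 10.7%.

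The library labelled RA late 3 weighs on the RA late values. It was the highest of the 3 RA late arrays for 24 of the 39 genes and lay above all RA control arrays for 18. Without it the median in RA late HF was -0.10, and 13 genes lay wholly below control, against 15.6% of all genes with the same 2 arrays. Then COX4I2, read from its brighter probe set, rose in RA late HF, by 0.84 (SE 0.20, adjusted p = 0.043, range over alternatives 0.0108 to 0.95), against 1.26% of all genes called. With all arrays it had 8.69, 8.19 and 7.64 in RA late HF, against 7.85, 7.39 and 7.57 in RA control (difference 0.57, SE 0.22, adjusted p = 0.33). Its other probe set had 7.22, 7.28 and 7.18 in RA late HF, against 7.15, 6.93 and 7.52 in RA control. That difference was 0.03 (adjusted p = 0.95), so the probe sets disagree here as well.

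SDHD had the smallest p in RA late HF, with 10.89, 10.88 and 10.80, against 10.56, 10.58 and 10.51 in RA control, a difference of 0.31 (SE 0.09, adjusted p = 0.248). COX7A2L had 9.95, 9.39 and 9.07 in RA late HF, a difference of 0.41 (SE 0.18, adjusted p = 0.387), and its RA late arrays overlapped control. In RV late HF the smallest p belonged to SDHB, with 11.82, 11.92 and 11.81 in late HF, against 12.08, 12.09 and 11.98 in control (difference -0.20, SE 0.10, adjusted p = 0.548). CYC1 had 10.22, 10.09 and 10.32 in RV late HF, a difference of -0.37 (SE 0.20, adjusted p = 0.59), also without overlap with control. COX7A1 was next, with 12.57, 12.51 and 12.37 in RV late HF, and overlapped control. The other 3 genes wholly below control in RV late HF were COX4I1, ATP5F1B and ATP5MC3.

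Late HF was set directly against early HF. In RA 33 of 39 genes had a higher mean in late than in early HF, with a median of 0.14 against 0.01 over all genes. In RV 31 of 39 did, with a median of 0.11 against 0.00. The shares of all genes with a higher mean are not given here. No gene of the 39 was called in either chamber, as was the case for 0% of all genes. At an unadjusted p under 0.05, 8 genes were higher in RA and 3 in RV, against 5.73% and 2.28% of all genes. In RA 7 genes of late HF lay wholly above early HF, against 5.06% of all genes, and in RV 6 did, against 6.3%. With quantile normalization the RA count was 2, against 4.54% of all genes. COX6A2 was the single gene of RV wholly lower in late than in early HF, against 6.69% of all genes. None was wholly lower in RA, against 2.3% of all genes.

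SDHD had the smallest p in both chambers, at 0.38 (SE 0.09, adjusted p = 0.357) in RA and 0.37 (SE 0.09, adjusted p = 0.483) in RV, late against early HF. Its RV arrays were 10.89, 11.14 and 10.92 in late HF, against 10.52, 10.64 and 10.69 in early HF. SDHB was higher in late than in early HF by 0.32 (SE 0.10) in RA, where its late arrays were 11.64, 11.63 and 11.97, and by 0.18 in RV. COX6A2 differed by 0.31 (SE 0.11) in RA, with late arrays of 11.87, 12.13 and 12.28. Without the library labelled RA late 3 the RA differences were 0.21 (SE 0.09) for SDHB, 0.22 (SE 0.11) for COX6A2 and 0.41 (SE 0.10) for SDHD, the median was 0.11, and 8 genes lay wholly above early HF, against 9.82% of all genes. In RV ATP5J2 had 13.06, 13.17 and 13 in late HF, against 12.67, 12.93 and 12.83 in early HF, and COX5B had 12.81, 12.91 and 12.88, against 12.55, 12.86 and 12.56. These late against early comparisons share their early arrays with the comparisons against control above, so a low early value enters both.

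The chambers were also compared with each other. In controls, 31 of 39 genes had a lower mean in RA than in RV (79.5% against 55.1% of all genes), with a median of -0.10 (6.91% lower) against -0.02. Limma called 0 of 39, against 2.69% of all genes, with 11 lower and 1 higher at an unadjusted p under 0.05, against 8.09% and 7.95% of all genes. For 16 genes the RA control arrays lay wholly below the RV control arrays, against 14.5% of all genes, and for 1 gene, COX8A, they lay wholly above, against 12.8%.

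SDHD, CYCS and SDHB had the smallest p in the control chambers. SDHD had 10.56, 10.58 and 10.51 in RA control, against 10.95, 10.96 and 10.81 in RV control, a difference of -0.36 (SE 0.09, adjusted p = 0.0521). CYCS had 12.87, 12.86 and 12.86 in RA control, against 13.21, 13.22 and 13.09 in RV control (difference -0.31, SE 0.09, adjusted p = 0.0847). SDHB differed by -0.29 (SE 0.10, adjusted p = 0.116). None of these pairs overlapped. Without the library labelled RA late 3 in the fit, SDHD, CYCS, SDHB and UQCRFS1 were lower in RA control (adjusted p = 0.031, 0.0341, 0.0316 and 0.0484), against 5.37% of all genes called. Over all alternatives these adjusted p values reached 0.21, 0.281, 0.334 and 0.628. UQCRFS1 had 12.58, 12.52 and 12.38 in RA control, against 12.91, 12.78 and 12.70 in RV control. With RA and RV arrays of the same number treated as pairs (a replicate block), 1 gene was called, COX11, a copper chaperone for complex IV, at -0.51 (adjusted p = 0.0389, range over alternatives 0.036 to 0.411), against 3.52% of all genes. COX11 had 7.03, 7.16 and 6.68 in RA control, against 7.76, 7.55 and 7.08 in RV control, and these arrays overlapped.

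In early HF 2 genes passed the test between the chambers, of 39, against 5.6% of all genes. COX6A2 was lower in RA, with 11.88, 11.66 and 11.81 in RA early HF, against 12.42, 12.62 and 12.57 in RV early HF. This direction was called for 2.59% of all genes. The difference was -0.75 (SE 0.11, adjusted p = 0.00128), or 1.69-fold, and its other probe set gave -0.55 (SE 0.10, adjusted p = 0.005). In controls COX6A2 was also lower in RA than in RV without overlap, with a difference of -0.23 (adjusted p = 0.294). COX8A was higher in RA, a direction called for 3% of all genes, with 11.32, 11.11 and 11.16 in RA early HF, against 10.63, 10.86 and 10.80 in RV early HF, a difference of 0.43 (SE 0.10, adjusted p = 0.0184), or 1.35-fold, and 0.40 with its other probe set (adjusted p = 0.0415). COX8A lost the call when RA early 1, RA early 3, RV early 1 or RV early 3 was left out, with an adjusted p of up to 0.0685.

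Between the chambers in early HF 10 genes were wholly lower in RA than in RV, against 11.3% of all genes, and 3 were wholly higher, against 10.9%. COX4I2 was wholly higher, with a difference of 0.72 (SE 0.22, adjusted p = 0.064), but its other probe set gave -0.05 (adjusted p = 0.879). With the replicate block 4 genes were called, COX6A2, COX8A, COX4I2 (adjusted p = 0.0132) and COX17 (adjusted p = 0.0382), against 7% of all genes. Over all alternatives the adjusted p ranged between 0.0132 and 0.879 for COX4I2 and 0.0256 and 0.296 for COX17. Without the library labelled RA late 3, COX4I2 and COX8A were higher and COX6A2, COX17, SDHA and ATP5F1B were lower in RA, against 8.75% of all genes called. COX17 had 11.20, 11.19 and 11.45 in RA early HF, against 11.47, 11.60 and 11.83 in RV early HF.

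In late HF the chamber comparison rested on the doubtful library. With all arrays 0 of 39 genes were called, against 0.0273% of all genes, with 2 lower and 0 higher at an unadjusted p under 0.05, against 5.83% and 5.2% of all genes. Of the 39, 3 lay wholly lower in RA (6.76% of all genes) and 1 wholly higher (6.05%). UQCRC1 had 11.93, 12.33 and 12.76 in RA late HF, against 12.64, 12.57 and 12.84 in RV late HF, and its highest RA value belongs to the library labelled RA late 3. The same holds for UQCRC2 (11.24, 11.23 and 11.68 in RA late HF, against 11.48, 11.71 and 11.87 in RV late HF) and COX6A2 (11.87, 12.13 and 12.28, against 12.35, 12.35 and 12.33). Without that library UQCRC1 was lower in RA by 0.55 on the log2 scale (SE 0.13, adjusted p = 0.0284, range over alternatives 0.00675 to 0.908), against 2.9% of all genes called, and 18 genes lay wholly below RV late HF, against 17.4% of all genes.

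No difference between the chambers in an HF effect passed the test for any of the 39 genes, in early or late HF, as for 0% of all genes. The medians of this difference were 0.03 in early HF and 0.06 in late HF, and the late median was -0.005 without the library labelled RA late 3 and -0.019 with array weights. At an unadjusted p under 0.05 there was 1 gene in early HF, COX6A2, and 0 in late HF, against 5.15% and 7.3% of all genes. After COX6A2 the smallest p in early HF belonged to COX4I2, at 0.64 (SE 0.31, adjusted p = 0.916), which was -0.19 with its other probe set. In late HF it belonged to COX11 at 0.43 (SE 0.24, adjusted p = 0.674), SDHD at 0.23 (SE 0.13) and COX18 at 0.39 (SE 0.24).

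Genes that serve the same pathway were read beside these. The 6 core subunits of complex I tested, which feed electrons from NADH into the chain, all had lower means in early HF in both chambers, with medians of -0.50 in RA and -0.33 in RV. Of the 6, 2 fell in RA early HF: NDUFS7 averaged 11 (SD 0.06) in RA early HF and 11.72 (SD 0.10) in RA control, a difference of -0.72 (SE 0.15, adjusted p = 0.0346), and NDUFS8 averaged 10.62 (SD 0.20) and 11.22 (SD 0.11), a difference of -0.61 (SE 0.12, adjusted p = 0.0326). Both carry iron-sulfur clusters. Lower calls made up 0.455% of all genes there. Without the library labelled RA late 3, NDUFV2 was called as well, at -0.46 (SE 0.10). None passed in RV early HF, where NDUFS7 differed by -0.54 (adjusted p = 0.172).

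Of 19 further assembly factors of complexes III to V, 17 had lower means in RA early HF (median -0.13) and 16 in RV early HF (median -0.23), and none passed the test. UQCC1, a complex III assembly factor, had the smallest p of them in RA early HF, at -0.46 (SE 0.12, adjusted p = 0.0898), and it alone of the 19 was called when the library labelled RA late 3 was left out. Among 10 tested regulators of mitochondrial genes none passed in any HF comparison. PPARGC1A, the coactivator PGC-1 alpha, differed by -0.54 (SE 0.33) in RA early HF, -0.36 in RA late HF, -0.62 in RV early HF and -0.56 in RV late HF. The RA late mean, 9.24 (SD 0.83), includes 10.18 on the library labelled RA late 3, which lay above the RA control mean of 9.61. That library therefore pulls the RA late difference of PPARGC1A toward control. Of 10 genes listed for mitochondrial mass, 8 had lower means in early HF of each chamber, with medians of -0.15 in RA and -0.05 in RV. None passed, and mass itself was not measured here. Citrate synthase (CS) differed by -0.09 (SE 0.15) in RA and -0.03 in RV.

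Levels of markers of other cell types differed between the same groups. The fibroblast list of 12 genes averaged 10.13 to 11.02 in RA early HF, 8.82 to 10.78 in RA late HF and 9.27 to 9.46 in RA control. The 8.82 belongs to the library labelled RA late 3, and the other RA late arrays, at 9.81 and 10.78, lay above control. In RV it averaged 8.83 to 9.14 in early HF, 9.17 to 9.48 in late HF and 8.38 to 8.60 in control. All 12 were higher in RA early HF than in control, by a median of 0.90, and 1 passed, POSTN, where higher calls made up 0.291% of all genes. POSTN averaged 8.81 in RA early HF and 4.2 in RA control. Its RA control mean lay under the signal limit of 5.31, as did its mean in every RV group. Only its means in RA early and RA late HF brought POSTN over that limit, so this call is against a control near the floor. Without the library labelled RA late 3, 8 of the 12 passed, and so did 6 of 12 macrophage and myeloid markers, against 1.63% of all genes called higher. In RV all 12 had higher means in both stages, with medians of 0.45 in early and 0.79 in late HF.

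The macrophage and myeloid list of 12 genes averaged 7.88 to 8.71 in RA early HF, 7.24 to 8.52 in RA late HF and 7.23 to 7.37 in RA control, and 7.09 to 7.64 in RV early HF, 7.61 to 7.77 in RV late HF and 7.12 to 7.27 in RV control. The cardiac myocyte list of 11 genes averaged 12.41 to 12.76 in RA early HF, against 12.84 to 12.87 in RA control. The ventricular list averaged 9.19 to 10.11 in RA early HF, against 8.60 to 9.23 in RA control. In RV early HF the cardiac myocyte list averaged 12.97 to 13.05, against 12.93 to 12.98 in RV control. In these pieces of whole tissue, fewer cells of a type and less RNA per cell cannot be told apart, and the part of cell makeup in the differences above was not tested.

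**Figure D4:**
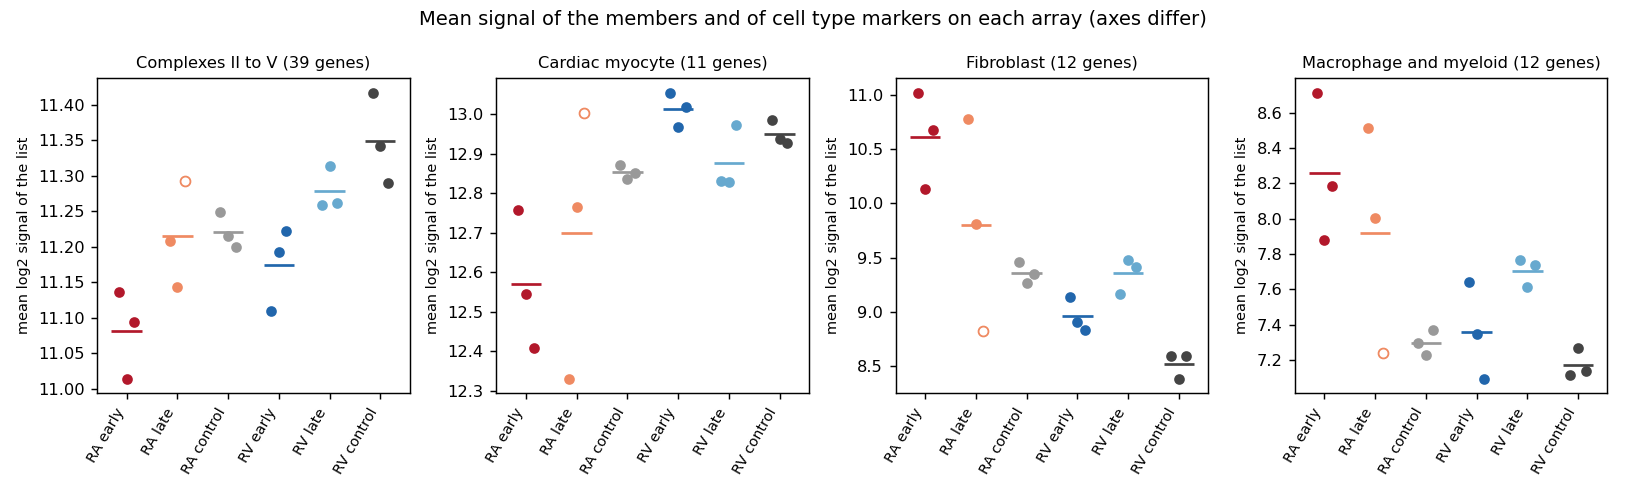
Mean log2 signal (y axis, a different range in each panel) on every array of the 39 respiratory genes and of lists of cardiac myocyte, fibroblast, and macrophage and myeloid markers in the 6 groups (x axis), with the mean of 3 arrays as a line and the library labelled RA late 3 as an open point. The respiratory genes are lowest in RA early HF (11.01 to 11.14), where the fibroblast list is highest (10.13 to 11.02), and are lower in RV early HF (11.11 to 11.22) than in RV control (11.29 to 11.42).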

How the data were processed

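The values analysed were deposited by the authors as log2 signal per probe set of an Affymetrix Canine_2 array, a scale read from the values themselves. MAS5 is named per the submitters' processing notes, and no version or scaling target is given in the sources used here. The 18 arrays have medians between 5.65 and 5.75, and no step was added. At least 97.5% of values differed between any 2 arrays.

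Of 43035 probe sets, 111 controls and the 40% of lowest mean were left out. Symbols came from the platform annotation. Coordinates and sequences are not used here. A mean for each of 6 groups was fitted with limma 3.58.1 (R 4.3.3, trended prior, 12 residual degrees of freedom, two-sided). The fit was tested on simulated data. Figures used matplotlib 3.10.9.

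The members and all gene lists were chosen with earlier results of these data known. Arrays are given for members called with all arrays in the fit, for the 3 of smallest p in each comparison and for isoform sets; other genes named were picked after their values were seen. Deviations of RA and RV arrays of the same number correlated at 0.356, 0.237 and 0.421 in control and 0.172, 0.26 and 0.151 in early HF. In late HF the values were 0.0525, -0.42 and 0.154. The RV array of the same number correlated best for every RA array in control and early HF, but not in late HF. No label identifies a dog, so pairing is not known, and the main fit does not use it. Alternatives were no filter, only the groups compared, array weights, quantile normalization, median centring, other probe sets, no probe sets that may cross-hybridise, a replicate block and leaving out each array. The counts of lower means and of separated arrays were added to these after seeing the data.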

Additional observations from a re-analysis of the deposited data

How the results depend on the processing

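COX6A2 was called between RA and RV in early HF in 15 of 15 alternatives (adjusted p 7.01e-05 to 0.0116) and COX8A in 10 of 15 (0.00543 to 0.0893, the highest with only the groups compared). Of the values of single genes, 1126 stayed the same, 5 became weaker, 68 became stronger and 2 reversed. Both reversals are COX4I2 read from its other probe set, at -0.053 between the chambers in early HF and -0.19 for the chamber difference in the early HF effect. Other numbers below are log2 medians or counts of members, and where no cause is given the cause was not tested.

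Members called in RA early HF against control were 4 with only the groups compared and 5 with array weights. They were 4 with the replicate block, where the samples share only a number and 2.8% of all genes were called. With array weights they were 9 in RA late HF, 3 in RV early HF, 7 in RA late against early HF, 4 between control chambers, 8 between early and 10 between late chambers, but the weights gave RA late 2 a weight of 18 and did not converge. Between control chambers they were 5 with only the groups compared and 1 each with quantile normalization, without probe sets that may cross-hybridise and with the second probe set. The replicate block gave 1 between control chambers (3.52% of all genes) and 4 between early chambers (7%). Leaving out 1 array gave 0 to 5 in RA early HF, 0 to 1 in RA late HF, 0 to 1 in RV early HF (COX4I1 without RV early 2), 0 to 4 between control chambers, 1 to 6 between early and 0 to 1 between late chambers. Each highest count came without RA late 3, where 3%, 1.26%, 0.528%, 5.37%, 8.75% and 2.9% of all genes were called in the same order. Without RV control 3 COX11 was called between control chambers (adjusted p = 0.036). The share of all genes called is not given for the other settings, so their counts cannot be read against it.

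Medians were -0.12 in RA early HF without probe sets that may cross-hybridise, -0.10 in RA late HF with array weights, and -0.13 in RV late HF and -0.15 between control chambers with quantile normalization. The second probe set gave -0.17 between control chambers, and array weights gave -0.019 for the chamber difference in the late HF effect. Leaving out 1 array gave -0.10 to -0.005 in RA late HF, -0.18 to -0.078 between early chambers (the lowest without RV early 1) and -0.005 (without RA late 3) to 0.088 for the late chamber difference.

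Without probe sets that may cross-hybridise, 25 members were tested in place of 39. Lower means were then 19 in RA early, 14 in RA late, 19 in RV early and 18 in RV late HF, 19, 17 and 15 between control, early and late chambers, and 11 and 9 for the early and late chamber differences. Separated lower members were then 10, 10, 7, 6 and 0 in RA early HF, RV early HF and between control, early and late chambers. The shares of all genes were 10%, 9.06%, 13.7%, 11% and 7.18% in the same order. Lower means in RA late against early HF were 11 with array weights, 10 with quantile normalization, 3 with the second probe set and 6 to 11 leaving out 1 array. For the late chamber difference they were 8 to 20 leaving out 1 array (8 without RA late 1). With quantile normalization, separated lower members were 3 in RA late HF (7.62% of all genes), 13 in RV late HF (12.1%) and 1 in RA late against early HF (3.59%). The second probe set gave 10 of 37 in RV late HF (10.7%). Without RA late 3 there were 13 in RA late HF (15.6%), 1 in RA late against early HF (6.34%) and 18 between late chambers (17.4%).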

Other observations

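Of the 39 members, 22 had several probe sets above the signal limit. The probe sets of 3 of these 22 genes (COX8A, SDHAF1 and UQCR11) differed in sign in RA early HF against control, as did those of 2 (SDHAF4 and UQCRH) in RV early HF. Of the genes that move ATP and phosphate across the mitochondrial membranes, 4 of 8 had lower means in RA early HF (median -0.06) and 7 of 8 in RV early HF (median -0.17), and none passed the test. Between the chambers in early HF, 2 of these 8 were higher in RA, a direction called for 3% of all genes. They were SLC25A5, by 0.80 (SE 0.20, adjusted p = 0.0249), and SLC25A6, by 0.79 (SE 0.17, adjusted p = 0.0147), both carriers that exchange ADP for ATP. In control chambers VDAC1, a channel of the outer membrane, was lower in RA by 0.53 on the log2 scale (SE 0.13, adjusted p = 0.0451), and FMC1, an ATP synthase assembly factor, by 0.50 (SE 0.12, adjusted p = 0.0387). Lower calls made up 1.07% of all genes in that comparison.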
